A study of Mus musculus with 8 samples.

Results

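Tnf, 7 further ligands of the tumour necrosis factor (TNF) superfamily and Adam17, the protease that sheds TNF from the cell surface, were followed in bone marrow derived mast cells (BMMCs). The 9 genes (Tnf, Lta, Ltb, Tnfsf8, Tnfsf9, Tnfsf10, Tnfsf13, Tnfsf14 and Adam17) were chosen by name and were found by their Ensembl identifiers among the 56748 identifiers of the count tables. All 9 passed the filter on low counts, which left 14942 genes for the test.

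BMMCs are mast cells grown from mouse bone marrow in vitro, and the 8 libraries were made from the RNA of resting cells. In the Mettl3-RNP group (4 libraries) cells had received ribonucleoproteins (RNPs) by transfection, in which the nuclease Cas9 carries guide RNAs against Mettl3. In the Pulsed group (4 libraries) the cells had been mock transfected and received no RNP, so this control does not separate Mettl3 from a response to Cas9 cutting or to the RNP itself. Both groups carry replicate numbers 1 to 4 and the cells came from 4 mice (C57BL/6 in the study's methods), and same-numbered libraries were compared as pairs. The RNP-transfected cells were bulk cultures, not clones, and fewer cells of a type cannot be told apart from less RNA per cell.

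TNF is made as a protein anchored in the membrane, where it acts on neighbouring cells, and it is released in soluble form once Adam17 cuts it. Mast cells are known for holding preformed TNF in their granules and for making more of it upon activation. Most TNF superfamily ligands work as trimers that bind receptors of the TNF receptor superfamily. Tnf mRNA is short-lived, because proteins such as tristetraprolin (Zfp36) bind AU-rich words in its 3′ untranslated region (UTR). Mettl3 catalyses the methylation of adenosines in mRNA.

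The AU-rich words of the ligands differed widely, and the stretch of Tnf stood out among them. The word ATTTA, read as AUUUA in RNA, and the longer word TTATTTATT are typical of AU-rich elements and were counted on the sense strand in the 3′ UTR of the canonical GENCODE transcript (GRCm39), with overlapping matches included. The 30 bases of each 3′ UTR with the most ATTTA words are printed here for Tnf, for its neighbour Lta, for Tnfsf10 and for Tnfsf14, 5′ to 3′ and with ATTTA in capitals. The Tnf stretch lies in exon 4 of 4 at chr17:35418652-35418681 (minus strand), that of Lta at chr17:35422383-35422412 (minus strand), that of Tnfsf10 at chr3:27393504-27393533 (plus strand) and that of Tnfsf14 at chr17:57497239-57497268 (minus strand).
Tnf: ATTTAttATTTATTTAttATTTATTTAttt
Lta: ATTTAtggagagaaaagttaagttATTTAt
Tnfsf10: ATTTAtcatATTTAtcactttcattatcaa
Tnfsf14: ATTTAtgcttctgatgcaaacactgagatt
The Tnf stretch held 5 ATTTA words, that of Lta and that of Tnfsf10 held 2 each, and that of Tnfsf14 held 1.

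In the whole 3′ UTR of Tnf (764 bases) there were 8 ATTTA words, or 10.5 per kb, a density at or above that of 99.6% of tested protein-coding genes with a 3′ UTR of at least 100 bases. The word TTATTTATT occurred 5 times in it, and it occurred at least once in 9.18% of the 11945 tested protein-coding genes with a 3′ UTR. Lta was the only other member with this longer word, with 1 match. Of ATTTA, Lta had 3 words in 572 bases (5.24 per kb) and Tnfsf9 had 2 in 265 bases (7.55 per kb). These densities too were high, at or above those of 95.6% (Lta) and 98.6% (Tnfsf9) of genes with a 3′ UTR of at least 100 bases. Tnfsf8 had 10 ATTTA words in 2802 bases and Tnfsf10 had 8 in 3998 bases. Tnfsf14 and Adam17 had 1 each, and Ltb and Tnfsf13 had none of these words. The word GGACT, a common context of methylated adenosines, was counted over whole transcripts and occurred 3 times in Tnf, Lta, Tnfsf10 and Tnfsf14, 7 times in Tnfsf8 and 2 times in each of the other members. At least 1 match was present in 93.8% of all tested protein-coding transcripts. Per kb, the density of GGACT was at or above that of 93.0% of them for Lta, 86.8% for Tnfsf8 and 86.7% for Tnf. The share was 81.5% for Ltb, 79.4% for Tnfsf14, 76.2% for Tnfsf9 and 61.9% for Tnfsf13, and 22.0% for Tnfsf10 and 14.0% for Adam17. No methylation was measured in these libraries.

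Tnf, Lta and Ltb form 1 cluster on chromosome 17. Tnf lies at 35418357-35420983 and Lta at 35422141-35424327, both on the minus strand and 1157 bases apart, and Ltb lies at 35413382-35415296 on the plus strand, 3060 bases from Tnf. Tnf and Lta were the members with the widest range between libraries (below), and their promoters are shown for that reason, from 250 bases before the RefSeq start to 50 bases after it (GRCm38.p6, chr17:35201958-35202257 for Tnf and chr17:35205302-35205601 for Lta, both on the minus strand). Capitals mark matches on either strand to the TATA word TATAAA and to GGAAA, the core of sites for NFAT, a transcription factor of activated mast cells and T cells.
Tnf promoter: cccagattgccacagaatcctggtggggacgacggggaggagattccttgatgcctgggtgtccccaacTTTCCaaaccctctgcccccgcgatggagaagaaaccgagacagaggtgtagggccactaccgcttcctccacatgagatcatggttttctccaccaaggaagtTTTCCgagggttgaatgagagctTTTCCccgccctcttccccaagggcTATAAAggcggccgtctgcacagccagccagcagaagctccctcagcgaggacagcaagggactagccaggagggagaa
Lta promoter: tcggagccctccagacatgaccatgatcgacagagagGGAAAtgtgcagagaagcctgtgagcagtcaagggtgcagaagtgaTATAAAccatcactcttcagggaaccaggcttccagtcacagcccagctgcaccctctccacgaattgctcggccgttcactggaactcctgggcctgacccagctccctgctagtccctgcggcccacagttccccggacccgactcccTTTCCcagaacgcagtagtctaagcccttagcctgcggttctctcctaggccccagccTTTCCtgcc
Each of the 2 promoters held 1 TATAAA, a word present in 13.6% of the 32851 RefSeq promoters of this length, and 3 matches to GGAAA, which is present in 61.3% of them. TATAAA was not in the promoters of Ltb, Tnfsf8, Tnfsf10, Tnfsf13, Tnfsf14 or Adam17, and Tnfsf9 was not in the promoter table. GGAAA had more matches in the promoter of Tnfsf14, with 4. It had 1 each in those of Ltb, Tnfsf8, Tnfsf10 and Adam17, and 0 in that of Tnfsf13. The AP-1 word TGANTCA (in 7.81% of promoters) was found in those of Tnfsf13 and Tnfsf14, and an NF-kappaB word, GGGA and TCC with any 3 bases between them (in 4.59%), in that of Ltb. Such matches describe the letters only.

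Total counts ranged from 32643260 to 45324826 per library. The targeted gene Mettl3 was lower in Mettl3-RNP libraries in 4 of 4 pairs, with 8.89 ± 3.05 CPM (counts per 1000000 counts with TMM library sizes, SD, n = 4) against 22.0 ± 7.29 CPM (SD, n = 4), a log2 fold change of -1.30 (SE 0.109, adjusted p = 0.00543 by the quasi-likelihood test of edgeR with the replicate number as a block). The share of the Pulsed level that remained averaged 40.9% over the 4 pairs, with 2308 of its 6765 exon bases opposite the gene Tox4. Replicate 3 stood apart for many members in both groups, as given below with each result. Of 10 mast cell markers 9 were tested, among them Kit, Fcer1a, Ms4a2 and Cma1, which did not pass, and Cpa3, a mast cell protease, which fell in each of the 4 pairs, by a fitted -0.37 on the log2 scale (SE 0.0699, adjusted p = 0.0328 by edgeR). In the basophil and eosinophil list 1 of 4 tested genes passed (Siglecf, lower, adjusted p = 0.0199 by edgeR). Of its other tested genes, Mcpt8 (-0.42, adjusted p = 0.267) and Prss34 (-0.68, adjusted p = 0.299) lay below 0 on the log2 scale, and only Cd200r3 (0.25, adjusted p = 0.151) lay above 0. In the macrophage and dendritic cell list 1 of 3 passed (Adgre1, lower, adjusted p = 0.0435). Marco (-0.70, adjusted p = 0.527) lay below 0 and Flt3 (1.29, adjusted p = 0.513) above it. The part of these markers in the members' values was not tested. The summed level of the mast cell list was 38256 to 54001 CPM in Mettl3-RNP and 43249 to 60950 CPM in Pulsed libraries. The T cell markers Cd3d, Cd2 and Cd8a, the B cell marker Ms4a1 and the neutrophil markers S100a8, S100a9, Elane and Camp were at 0 counts in all 8 libraries. Other T cell markers were not, with up to 49 counts in a library for Cd3e, 75 for Cd4 and 22 for Lck. Nor were the other B cell and neutrophil markers, with up to 16 counts for Pax5, 6 each for Cd79a and Cd79b, 8 for Ly6g and 7 for Mpo. The summed level was at most 3.09 CPM for the T and NK cell markers, 0.537 CPM for the B cell markers and 0.373 CPM for the neutrophil markers in any library, and from 1.75 to 5.07 CPM for the macrophage and dendritic cell markers. The basophil and eosinophil list reached 505 to 824 CPM, most of it from Cd200r3 (688 ± 134 CPM in Mettl3-RNP and 572 ± 58.1 CPM in Pulsed libraries, SD, n = 4 each), which mast cells also express.

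Per kb of exon, Tnfsf14 had the highest mean log2 level of the members, and Ltb had the lowest. The levels over the 8 libraries were 27.2 ± 10.1 CPM per kb for Tnfsf14, 59.4 ± 124 for Tnf, 8.73 ± 1.93 for Adam17, 8.94 ± 2.93 for Tnfsf8, 4.63 ± 1.30 for Tnfsf9, 4.01 ± 1.79 for Tnfsf10, 0.815 ± 0.770 for Lta, 0.555 ± 0.298 for Tnfsf13 and 0.263 ± 0.0658 for Ltb (CPM per kb, SD, n = 8, in the order of the mean log2 level). Only 1 step of this order held in all 8 libraries, that from Tnfsf8 down to Tnfsf9. Tnfsf14 was above Tnf in 6 of 8 libraries, Tnf above Adam17 in 3 of 8, and Adam17 above Tnfsf8 in 4 of 8, so the places of Tnf, Adam17 and Tnfsf8 did not differ beyond their spread. The other steps held in 5 or 6 of 8 libraries. These transcripts of resting cells therefore span a wide range, from Tnfsf14 and Tnf to Ltb, which was read from 9 to 21 counts per library.

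**Figure D1:**
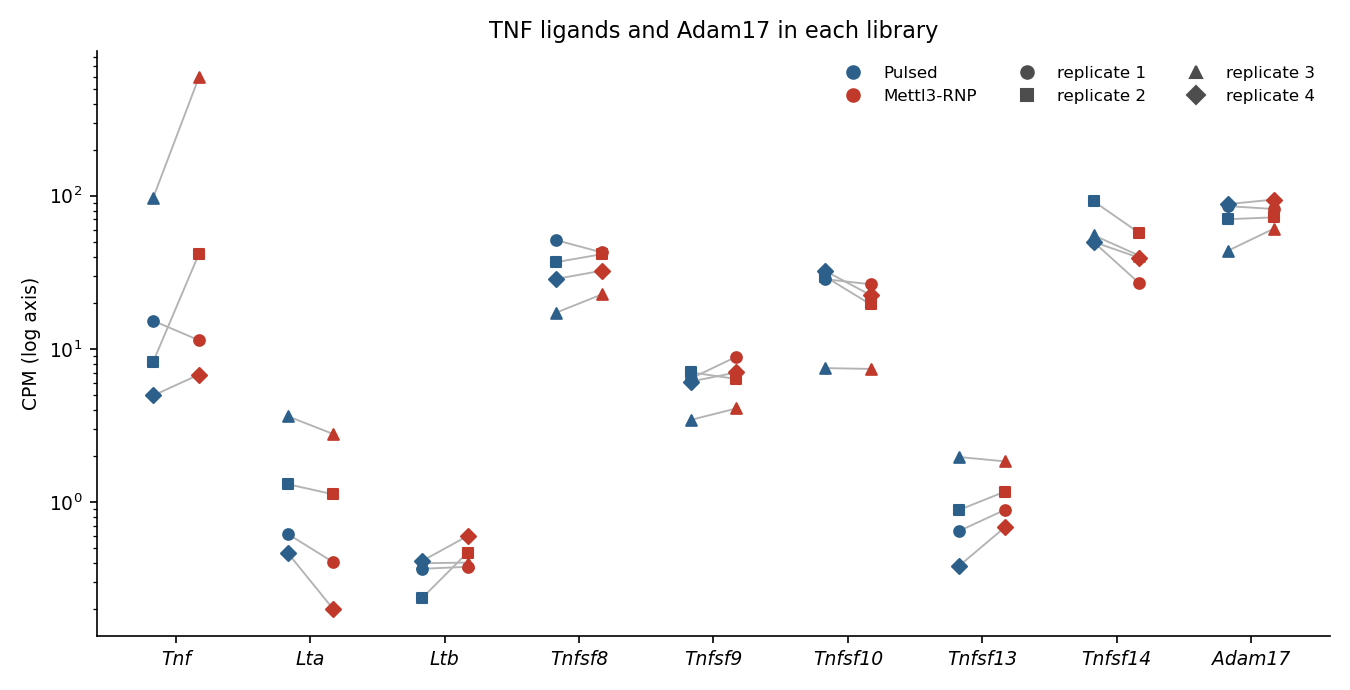
Level of each of the 9 genes in each library, in CPM on a log axis, with Pulsed libraries in blue, Mettl3-RNP libraries in red, a marker shape for each replicate number and a grey line joining the libraries of a pair. Tnf spans 4.96 to 594 CPM with both replicate 3 libraries at the top, whereas Tnfsf8, Tnfsf9, Tnfsf10 and Adam17 have their lowest values in the replicate 3 libraries of both groups.

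Against the background of 2.06% of tested genes past the threshold (adjusted p of at most 0.05 and a fold change of at least 1.5), 1 of the 9 members passed, Tnfsf14, which was lower in Mettl3-RNP cells. The shares of all tested genes past the threshold were 1.24% in the higher and 0.816% in the lower direction. No member passed in the higher direction. The median fitted log2 fold change of the 9 members was 0.14, and that of all tested genes was -0.0013. In 4 of 4 pairs, 1 member was higher (Ltb) and 3 were lower (Lta, Tnfsf10 and Tnfsf14), while 15.7% of all tested genes were higher and 16% lower in every pair. In no member were the CPM ranges of the groups separate, which was so for 3.23% of tested genes.

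**Figure D2:**
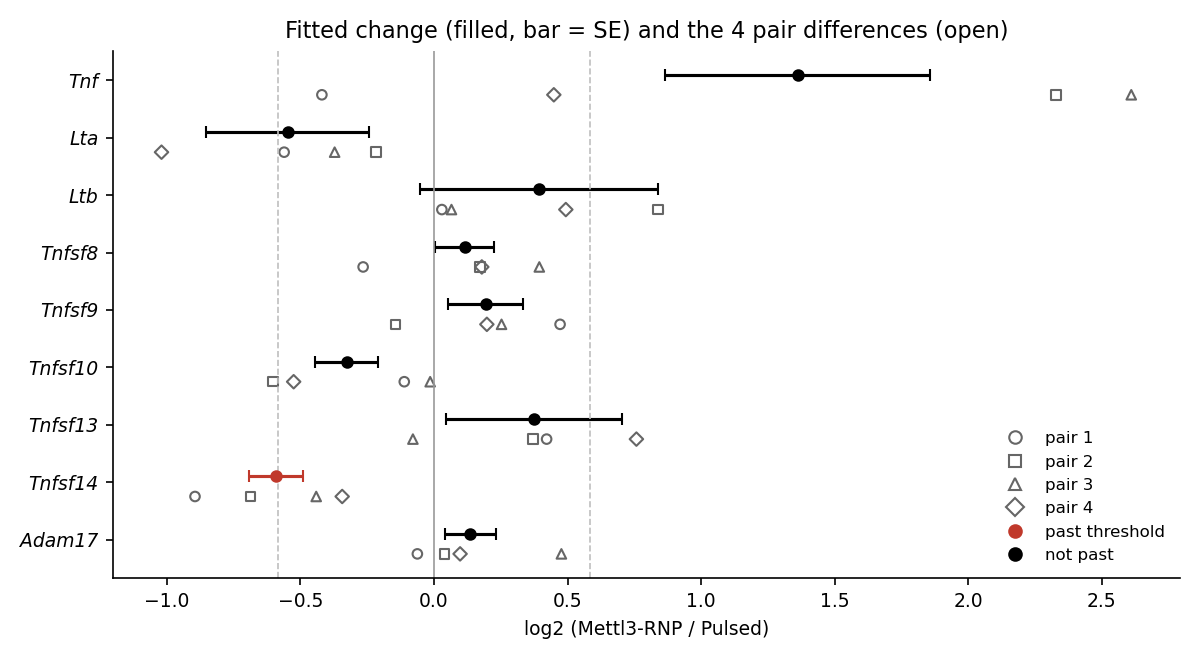
Fitted log2 fold change of each gene (filled circle, bar of 1 SE, red where past the threshold) and the log2 difference of each pair (open markers), with dashed lines at a 1.5-fold change in either direction. The Tnf differences run from -0.42 in pair 1 to 2.61 in pair 3, and the 4 differences of Tnfsf14 lie between -0.90 and -0.34.

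Tnf itself was the member with the largest fitted difference, but it did not pass the test. Its level was 11.4, 41.7, 594 and 6.78 CPM in Mettl3-RNP replicates 1 to 4 and 15.2, 8.25, 97.1 and 4.96 CPM in Pulsed replicates 1 to 4. Both replicate 3 libraries were far above all others, the lowest values were in replicate 4, and the groups overlapped. The level was higher in Mettl3-RNP cells in 3 of 4 pairs, and the log2 differences of pairs 1 to 4 were -0.42, 2.33, 2.61 and 0.45. The fitted log2 fold change of 1.36 (SE 0.496) had an unadjusted p of 0.0256 and an adjusted p of 0.154 by edgeR. Flipping the signs of the 4 pair differences in an exact permutation test (two-sided) gave p = 0.25, where 4 pairs allow no p under 0.125. The lowest library had 181 counts, so counting error was small beside the spread between pairs. Without replicate 1, the pair in which Tnf was lower in Mettl3-RNP cells, the log2 fold change was 1.90 (adjusted p = 0.0388), and without replicate 3 it was 0.80 (adjusted p = 0.376). The call on Tnf thus turned on which pairs were in the fit.

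The libraries with much Tnf were also rich in immediate early genes, the first genes that cells switch on upon stimulation or handling. For 13 of them (Fos, Fosb, Jun, Junb, Egr1, Egr2, Egr3, Ier2, Ier3, Atf3, Nr4a1, Dusp1 and Dusp2) the summed level was 3258, 6660, 25497 and 771 CPM in Mettl3-RNP replicates 1 to 4, and 3817, 4289, 22017 and 602 CPM in Pulsed replicates 1 to 4. Replicate 3 was highest and replicate 4 lowest in both groups, for this sum and for Tnf. Replicate 2 was above replicate 1 for the sum in both groups, but for Tnf only in Mettl3-RNP libraries, since in Pulsed libraries Tnf was higher in replicate 1. None of the 13 genes had an adjusted p of at most 0.05, and their median log2 fold change was 0.37. Their median pair differences were -0.32, 0.71, 0.16 and 0.56 on the log2 scale in pairs 1 to 4. The Tnf difference minus that median was -0.10, 1.62, 2.45 and -0.11 in pairs 1 to 4. Over the 4 pairs the Tnf difference exceeded the median of the immediate early genes by 0.97 ± 1.28 (log2, SD, n = 4; exact two-sided sign-flip permutation p = 0.5). The part of the immediate early genes in the Tnf values was not tested.

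**Figure D3:**
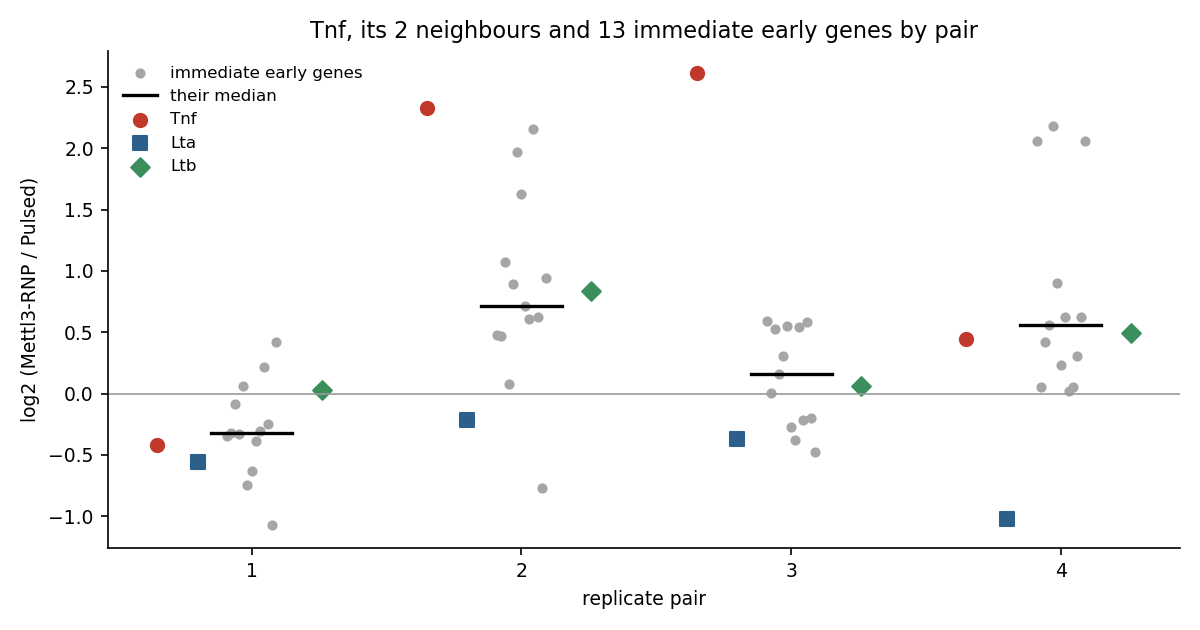
Log2 difference of Mettl3-RNP against Pulsed in each replicate pair for Tnf (red circles), Lta (blue squares), Ltb (green diamonds) and 13 immediate early genes (grey points, black line at their median). Tnf lies 2.33 and 2.61 above 0 in pairs 2 and 3, above every grey point there, and Lta is below 0 in each pair.

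Lta, which encodes lymphotoxin alpha, the secreted relative of TNF from the adjacent gene, did not pass the test either. Its level was 0.404, 1.12, 2.78 and 0.200 CPM in Mettl3-RNP replicates 1 to 4 and 0.619, 1.31, 3.63 and 0.466 CPM in Pulsed replicates 1 to 4. It was lower in Mettl3-RNP cells in 4 of 4 pairs, and like Tnf it was highest in both replicate 3 libraries and lowest in both replicate 4 libraries. The log2 fold change was -0.55 (SE 0.305, adjusted p = 0.339 by edgeR), on 7 to 146 counts per library. The number of Tnf counts per Lta count was 28.2, 37.2, 214 and 34.0 in Mettl3-RNP replicates 1 to 4 and 24.6, 6.32, 26.8 and 10.6 in Pulsed replicates 1 to 4. This ratio was chosen after the values had been seen and is given as a description, with no test. The Tnf difference minus that of Lta was 0.14, 2.55, 2.98 and 1.47 on the log2 scale in pairs 1 to 4, so in pair 1 the 2 genes were lower by similar amounts. Ltb, which encodes the membrane partner of lymphotoxin alpha, was at 0.377, 0.467, 0.401 and 0.599 CPM in Mettl3-RNP and at 0.366, 0.235, 0.398 and 0.411 CPM in Pulsed replicates 1 to 4. It was higher in 4 of 4 pairs, with a log2 fold change of 0.39 (SE 0.447, adjusted p = 0.665 by edgeR), and the groups overlapped. The pair differences were 0.029, 0.84, 0.065 and 0.49 on the log2 scale. Those of pairs 1 and 3 were close to 0 and rested on 14 against 13 and 12 against 16 counts (Mettl3-RNP against Pulsed). The Tnf difference minus that of Ltb was -0.45, 1.49, 2.55 and -0.045 in pairs 1 to 4.

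Around this cluster, 7 of the 8 neighbouring genes fixed as a list were found in the tables, 6 were tested and 1 had an adjusted p of at most 0.05, against 2.35% of all tested genes that were higher and 1.39% that were lower by that rule. It was Ddx39b, an RNA helicase of mRNA export, at 311 ± 38.8 against 226 ± 28.1 CPM (SD, n = 4 each), higher in 4 of 4 pairs and with separate groups (log2 fold change 0.46, SE 0.0732, adjusted p = 0.0223 by edgeR), a change of less than 1.5-fold. Its adjusted p was 0.105 without replicate 1 and 0.116 without replicate 2. Among the others, Lst1 (-0.76, SE 0.175, adjusted p = 0.0569) and Bag6 (-0.22, SE 0.0753, adjusted p = 0.133, with separate groups) were lower in 4 of 4 pairs without passing. The median log2 fold change of the 6 tested neighbours was -0.013.

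Tnfsf14, the ligand LIGHT, which binds the herpesvirus entry mediator (Tnfrsf14) and the lymphotoxin beta receptor (Ltbr), fell in Mettl3-RNP cells. It lies on chromosome 17 at 57496451-57501177 (minus strand), 81681 bases from Tnfsf9. Its level was 26.8, 57.1, 40.6 and 39.3 CPM in Mettl3-RNP replicates 1 to 4 and 49.8, 91.9, 55.2 and 49.9 CPM in Pulsed replicates 1 to 4. Each Mettl3-RNP library was below its Pulsed partner, while Mettl3-RNP 2 was above 3 of the 4 Pulsed libraries. The pair differences were -0.90, -0.69, -0.44 and -0.34 on the log2 scale. The log2 fold change was -0.59 (SE 0.0998, adjusted p = 0.0272 by edgeR), and the exact sign-flip permutation test gave p = 0.125, the smallest that 4 pairs allow. The change is close to the limit of 1.5-fold, and it was under that limit with other scalings. Without replicate 1 the adjusted p was 0.0645 (log2 fold change -0.53), and without replicate 2 it was 0.117 (-0.57). Tnfsf14 was also the member with the smallest share of its variance between replicate numbers apart from Ltb, 56.7%, with 38.2% between the groups.

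Of 9 receptor genes 6 were tested, and 1 of them passed the threshold in the higher direction, as did 1.24% of all tested genes. Ltbr, which is bound by LIGHT and by the lymphotoxin alpha and beta complex, rose in 4 of 4 pairs, from 10.4 ± 5.25 to 17.8 ± 7.71 CPM (SD, n = 4 each; log2 fold change 0.79, SE 0.127, adjusted p = 0.0237 by edgeR). The groups overlapped in CPM, and without replicate 2 the log2 fold change of Ltbr was 0.73 with an adjusted p of 0.113. Tnfrsf14, the other receptor of LIGHT, had a log2 fold change of -0.29 (SE 0.188, adjusted p = 0.417). Tnfrsf9 (4-1BB), the receptor of the Tnfsf9 product, was at 0.944 ± 0.695 against 2.23 ± 1.87 CPM (SD, n = 4 each), lower in 4 of 4 pairs, but did not pass (log2 fold change -1.23, SE 0.362, adjusted p = 0.098). Among the receptors of TNF, Tnfrsf1b had a log2 fold change of 0.08 (SE 0.432, adjusted p = 0.935), and Tnfrsf1a was at 0.0669 ± 0.0647 and 0.0414 ± 0.0672 CPM and was not tested. Tnfrsf13b, a receptor of the Tnfsf13 product (APRIL), had the highest level of the list, 69.0 ± 21.8 against 72.3 ± 11.1 CPM (SD, n = 4 each; adjusted p = 0.651 by edgeR), and Tnfrsf17, the other APRIL receptor of the list, was at 0 counts in all 8 libraries. The median of the 6 tested receptors was -0.014 on the log2 scale.

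Tnfsf10 (chromosome 3, 27371033-27396576, plus strand), which encodes the death ligand TRAIL, was at 26.4, 19.5, 7.39 and 22.4 CPM in Mettl3-RNP and at 28.5, 29.7, 7.48 and 32.3 CPM in Pulsed replicates 1 to 4. Both replicate 3 libraries were lowest, at 1.69 below the next replicate number on the log2 scale, and in them the groups were nearly equal. The log2 fold change was -0.33 (SE 0.119, adjusted p = 0.155 by edgeR), with a lower value in 4 of 4 pairs and pair differences of -0.11, -0.60, -0.014 and -0.53. Its receptor Tnfrsf10b had a log2 fold change of 0.18 (SE 0.171, adjusted p = 0.596).

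Tnfsf8 (chromosome 4, 63749542-63779592, minus strand), the ligand of CD30, and Tnfsf9 (chromosome 17, 57412298-57414769, plus strand), the ligand of 4-1BB, gave small differences of mixed sign. Tnfsf8 ranged from 22.7 to 42.6 CPM in Mettl3-RNP and from 17.3 to 51.3 CPM in Pulsed libraries, with a log2 fold change of 0.12 (SE 0.11, adjusted p = 0.596 by edgeR). Tnfsf9 ranged from 4.08 to 8.88 and from 3.43 to 7.02 CPM, with a log2 fold change of 0.19 (SE 0.140, adjusted p = 0.470). Each was higher in Mettl3-RNP cells in 3 of 4 pairs, and each was lowest in the replicate 3 libraries of both groups. Of the exon bases of Tnfsf9, 192 lie opposite the gene Gm11110, so reads of the 2 genes may not be told apart there.

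Tnfsf13 (chromosome 11, 69573403-69576610, minus strand), which encodes APRIL, a survival factor of plasma cells, was at 0.888, 1.17, 1.84 and 0.684 CPM in Mettl3-RNP and at 0.647, 0.888, 1.96 and 0.383 CPM in Pulsed replicates 1 to 4. Like Tnf and Lta it was highest in the replicate 3 libraries of both groups. The log2 fold change was 0.37 (SE 0.329, adjusted p = 0.561 by edgeR), higher in 3 of 4 pairs. This value is uncertain for a further reason, since 1252 of its 1906 exon bases are shared with Tnfsfm13, a read-through transcript that joins Tnfsf12 to Tnfsf13, and how reads in shared bases were assigned is not stated. Tnfsfm13 itself was at 1.84 ± 0.536 against 1.69 ± 0.182 CPM (SD, n = 4 each; log2 fold change 0.09, adjusted p = 0.883). The adjacent ligand gene Tnfsf12 (TWEAK) was at 45.2 ± 7.41 against 32.0 ± 3.40 CPM, higher in 4 of 4 pairs with separate groups, but with a log2 fold change of 0.49 (SE 0.130) its adjusted p was 0.0765, and 980 of its 1872 exon bases are shared with Tnfsfm13 too. Of 10 further TNF superfamily ligands, 3 were tested and none passed, with Tnfsf4 (OX40 ligand) at -0.18 (SE 0.278) and Tnfsf13b (BAFF) at 0.24 (SE 0.423) on the log2 scale. Cd40lg was at 0 counts in all 8 libraries, and Fasl, Cd70, Tnfsf11, Tnfsf15, Tnfsf18 and Eda did not pass the filter.

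Adam17 (chromosome 12, 21373510-21423672, minus strand), the sheddase of TNF, differed little between the groups. Its level was 81.9, 72.3, 60.9 and 94.4 CPM in Mettl3-RNP and 85.5, 70.3, 43.8 and 88.2 CPM in Pulsed replicates 1 to 4. Both replicate 3 libraries were lowest, and the groups overlapped. The log2 fold change was 0.14 (SE 0.0955, adjusted p = 0.458 by edgeR), higher in 3 of 4 pairs, with the largest difference of 0.48 in pair 3. Of its 8555 exon bases, 341 lie opposite Iah1, whose log2 fold change was 0.07 (adjusted p = 0.734).

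The 9 genes fixed as partners of the sheddase were all tested, and none had an adjusted p of at most 0.05. The 2 inactive rhomboid proteins that carry Adam17 to the cell surface, Rhbdf1 and Rhbdf2, had log2 fold changes of 0.53 (SE 0.161, adjusted p = 0.108, higher in 4 of 4 pairs) and 0.46 (SE 0.204, adjusted p = 0.233, higher in 3 of 4 pairs) by edgeR. Timp3, the inhibitor of Adam17, was at 111 ± 29.9 against 161 ± 62.8 CPM (SD, n = 4 each), lower in 4 of 4 pairs (log2 fold change -0.48, SE 0.112, adjusted p = 0.0594). Furin, the convertase that removes the prodomain of Adam17, had a log2 fold change of 0.15 (SE 0.150), and Adam10, the nearest related sheddase, had one of 0.02 (SE 0.0741). The remaining partners lay between -0.20 for Adam8 and 0.21 for Frmd8, and the median of the 9 was 0.05. Of 12 other substrates of Adam17, 5 were tested (median 0.70) and none had an adjusted p of at most 0.05. Their fitted values ran from -0.12 to 1.07 on the log2 scale. Those above the median, 0.94 (SE 0.808) and 1.07 (SE 1.08), came from genes with a mean under 1 CPM in both groups. Thus neither the sheddase transcript nor any of its listed partners passed the test in either direction.

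**Figure D4:**
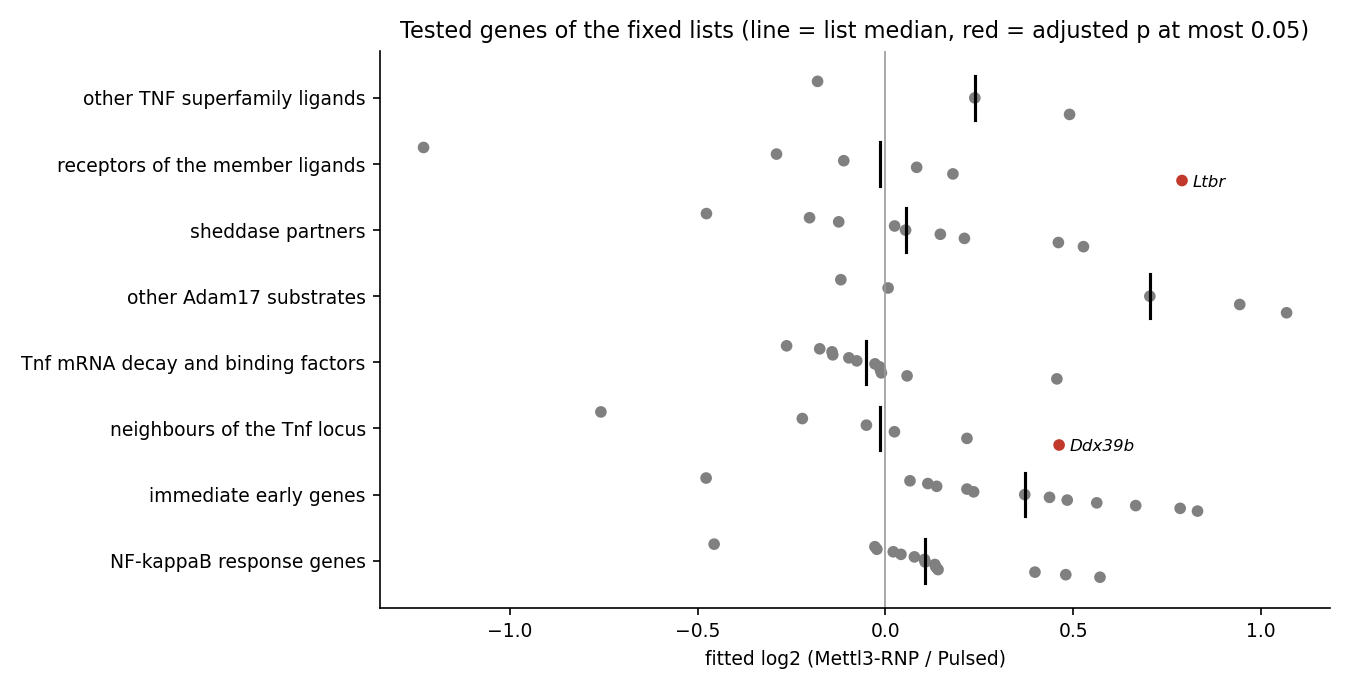
Fitted log2 fold change of each tested gene in 8 lists of related genes, with a black line at the median of each list and red for genes with an adjusted p of at most 0.05. Ltbr (0.79) and Ddx39b (0.46) are the red points, and the 12 factors that bind or destabilise Tnf mRNA lie between -0.26 and 0.46.

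The list of factors that bind or destabilise Tnf mRNA includes proteins of AU-rich words, such as Zfp36, and proteins of other elements, such as Rc3h1, Rc3h2 and Zc3h12a. All 12 were tested and none had an adjusted p of at most 0.05, with a median log2 fold change of -0.052. The largest fitted value was that of Zc3h12a, 0.46 (SE 0.166, adjusted p = 0.154 by edgeR). Zfp36 (tristetraprolin), whose gene is itself an early response gene, was at 90.6 ± 95.0 against 124 ± 158 CPM (SD, n = 4 each). Its log2 pair differences were -0.46, 0.55, -0.64 and 0.75, with the sign of the Tnf difference in pairs 1, 2 and 4 and the opposite sign in pair 3. Of 15 genes of the NF-kappaB response, 14 were tested and none passed, with a median of 0.10.

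In 7 of the 9 members, the variance between replicate numbers took a larger share than in the median gene. The share of the variance of log2 CPM between numbers was 83.6% for Tnf, 93.7% for Lta, 92.3% for Tnfsf8, 87.4% for Tnfsf9, 93.8% for Tnfsf10, 88.3% for Tnfsf13 and 86.7% for Adam17, beside a median of 78.3% over all tested genes. Tnfsf14 (56.7%) and Ltb (36.3%) were below that median. Between groups lay 8.03% for Tnf, and the median of all tested genes was 5.68%. Tnf ranged 120-fold from its lowest to its highest library, Lta 18.2-fold and the other members from 2.16-fold (Adam17) to 5.12-fold (Tnfsf13). Lta and Tnfsf13 had a Pearson r with Tnf of 0.80 and 0.87 over the 8 libraries, and Tnfsf10 had one of -0.91. These coefficients describe 8 libraries of which 2 share the replicate number 3.

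Among 11984 other tested genes (mean level of 1 CPM or more), the 5 whose log2 CPM followed that of Tnf most closely over the 8 libraries were Usp38 (Pearson r 0.988), 2310057M21Rik (0.980), Garre1 (0.973), Slc36a4 (0.971) and Zfx (0.970). Usp38, a deubiquitinase, had 263 and 165 CPM in the replicate 3 libraries of Mettl3-RNP and Pulsed cells, and 64.5 to 114 CPM in the other libraries. Without the 2 replicate 3 libraries the coefficients of these 5 genes were 0.933, 0.889, 0.945, 0.867 and 0.903 (n = 6). These 6 libraries were among the 8 by which the 5 genes were chosen, so the values are no check on that choice. For genes not chosen by their coefficient, the values were 0.52 (Lta), 0.78 (Egr1), 0.70 (Zfp36) and 0.65 (Nr4a1). None of the 5 had an adjusted p of at most 0.05, with log2 fold changes from 0.11 to 0.35.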

How the data were processed

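Poly-A RNA-seq was done on 4 Mettl3-RNP and 4 Pulsed BMMC samples. The authors aligned reads with HISAT2 (version 2.2.1 in the submitters' processing notes) to GRCm39 and deposited whole-number counts per Ensembl gene made with featureCounts (2.0.1), with no normalization. Strand and overlap settings, and the batch that the methods correct for, are not given in the sources used here.

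GENCODE mouse release annotation on GRCm39 named 56017 of 56748 identifiers. Genes were filtered with filterByExpr (about 10 counts in 4 libraries), scaled by TMM (trimmed mean of log ratios) and tested with the quasi-likelihood test of edgeR 4.0.16 in R 4.3.3 blocked on replicate number, with Benjamini-Hochberg adjustment over all 14942 genes. Pair differences used a prior count of 2 and TMM library sizes. Standard errors were derived from the test statistic. Alternatives used DESeq2 1.42.0 and limma 3.58.1. Promoters came from RefSeq (GRCm38.p6), which matched 8 of 9 members.

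The pairing is read from the series text, which names 4 mice. After subtraction of group means, libraries of 1 number correlated at 0.825, 0.489, 0.879 and 0.765 for pairs 1 to 4 over 11985 genes of at least 1 CPM, and other pairs at up to 0.183. Over all 14942 tested genes they correlated at 0.534, 0.0738, 0.735 and 0.580, and other pairs at up to 0.249, so pair 2 was below that value. The study describes the RNP samples as biologically independent. Reads carried no molecular identifiers, so counting error is a lower limit. The members and lists were chosen with earlier results of these data known. Besides members and Mettl3, genes of the lists were named at an adjusted p of at most 0.05, any ligand, receptor or sheddase partner could be named, and the 5 genes most like Tnf were added. Tnfsfm13, Iah1, Gm11110, Lst1, Bag6, Zfp36, Rc3h1, Rc3h2 and Zc3h12a were added with their values already seen, as were the marker genes.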

Additional observations from a re-analysis of the deposited data

Results flagged for a closer look

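In groups of 4 libraries, a value was marked where its gap to the nearest other library was a large share of the range of the group (Dixon's test at the 95% level). Of 44 groups examined (2 for each of 22 genes), 7 held such a value. If the groups were independent, chance would give about 2.2. They all come from the same libraries, so the 7 cannot be read as an excess over that number. Of the 7 values, 6 were replicate 3 libraries.

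For Tnf, both replicate 3 libraries stood above their groups, at 594 CPM (Mettl3-RNP 3) and 97.1 CPM (Pulsed 3). For Tnfsf10, Pulsed 3 was low, at 7.48 CPM. For Tnfsf14, Pulsed 2 was high, at 91.9 CPM. For Mettl3, Pulsed 3 was low, at 11.2 CPM. Among the sheddase partners, Pulsed 3 was high for Rhbdf1, at 10.1 CPM, and for Furin, at 4454 CPM. What sets replicate 3 apart was not tested.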

How the results depend on the processing

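All values of the 9 members kept their sign under every alternative that could be run, and Lta and Ltb gave no value with at least 10 counts in every library. The number of members past the threshold, 1 in the fit reported, was 0 with DESeq2 size factors, with total counts alone and with the DESeq2 Wald test, where Tnfsf14 had log2 fold changes of -0.58, -0.56 and -0.58, just under 1.5-fold, with adjusted p-values of 0.0210, 0.0317 and 1.94e-05. It was 1 (Tnfsf14) with limma-voom and with at least 10 counts in every library. With no filter on low counts it was 1, but this was Tnf (log2 fold change 1.35, adjusted p = 1.31e-18), as edgeR then estimated an infinite prior number of degrees of freedom, so each gene was given the shared spread. Leaving out each replicate number gave 0 to 1 members, with 0 without replicate 2 (26 of all 14904 genes tested, against 308 of 14942), Tnf in place of Tnfsf14 without replicate 1, and Tnfsf14 without replicate 3 or 4. Tnf ranged from 0.80 to 1.90 in these fits (adjusted p from 0.0388 to 0.450), and it had an adjusted p of 0.225 with DESeq2 and of 0.0593 with limma-voom. Of all 14942 genes, 329 passed with DESeq2 size factors, 306 with total counts alone, 505 with the DESeq2 Wald test and 347 with limma-voom. It was 411 of 12504 with at least 10 counts in every library and 579 of 33650 with no filter. Without replicate 1, 3 and 4 it was 310 of 15249, 246 of 14900 and 331 of 15496.

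Without the replicate block 0 members passed, and 0 of all genes (579 at an unadjusted p under 0.05), Mettl3 had a log2 fold change of -1.31 with an adjusted p of 0.744, and Tnf one of 2.38. Of the fixed pathway lists, 2 genes (Ltbr and Ddx39b) had an adjusted p of at most 0.05, against 0 without the block, 17 with no filter, 6 with at least 10 counts in every library, 13 with DESeq2, and 0 to 4 on leaving out a replicate number, with 0 without replicate 2 and 4 without replicate 4. Over all tested genes that number moved too, from 559 to 0, 993 of 33650, 959 of 12504 and 1449 in the first 4 of these fits, and to 26 without replicate 2 and 345 without replicate 4. The causes were not tested. The low counts of Ltb (9 to 21) and Lta (7 to 146) limit what these libraries can show for them.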

Other observations

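The 9 members summed to 734 CPM in Mettl3-RNP 3, of which Tnf made up 594 CPM, and to 200 to 246 CPM in the other libraries. Of the 17 tested genes of the marker lists, 3 had an adjusted p of at most 0.05 by edgeR, each lower in Mettl3-RNP cells in 4 of 4 pairs. They were Siglecf, of the basophil and eosinophil list, Adgre1, of the macrophage and dendritic cell list, and Cpa3, a mast cell protease. Siglecf was at 1.57 ± 0.605 against 4.30 ± 1.04 CPM (SD, n = 4 each, log2 fold change -1.50, SE 0.226, adjusted p = 0.0199). Adgre1 was at 1.18 ± 0.370 against 2.53 ± 0.444 CPM (-1.13, SE 0.235, adjusted p = 0.0435). Cpa3 was at 23272 ± 4921 against 30425 ± 7703 CPM (-0.37, SE 0.0699, adjusted p = 0.0328). By that rule 1.39% of all tested genes were lower. In the list of Siglecf, Mcpt8 (-0.42) and Prss34 (-0.68) were also lower in 4 of 4 pairs without passing, and Cd200r3 (0.25) was higher. In that of Adgre1, Marco had a fitted value of -0.70 and Flt3 one of 1.29 (adjusted p = 0.513). The adjusted p of Adgre1 lay between 0.0906 and 0.110 on leaving out each replicate number and was 0.0507 with total counts alone. That of Cpa3 was 0.159, 0.0710 and 0.109 without replicate 2, 3 and 4 and 0.0583 with at least 10 counts in every library, and that of Siglecf was 0.0976 without replicate 2. Without the replicate block none of the 3 kept an adjusted p under 0.05 (0.722 to 0.999).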
